A study of Stylosanthes guianensis with 6 samples.

Results

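The AP2/ERF and NAC transcription factors described here are 35 of the 123 unigenes in the study's table of transcription factors that responded to Mn toxicity in leaves of stylo (Stylosanthes guianensis), a tropical forage legume. They were chosen by the Pfam family column of that table, which contains AP2 for 24 unigenes and NAM, the domain that defines NAC proteins, for 11, out of 102864 unigenes in the deposited tables. The treated group, called Mn toxicity, was grown with 400 μM MnSO4 and the control Mn group with 5 μM MnSO4. Both groups were seedlings of the same genotype, TF303, raised hydroponically for 30 d before the treatment and harvested after 10 d of it, and each group has 3 libraries of leaf RNA, each a separate biological replicate by the study's methods. A unigene is the assembled counterpart of a gene, since no genome sequence was used, and its level is given as RPKM, the number of reads divided by the length of the unigene in kilobases and by the mapped megareads of the library. The study listed these unigenes because they differed between the same 6 libraries, so all values below describe the members and no p-value is attached to any of them. Where a member is said to be called higher or lower, it passed limma's test across all unigenes with an absolute log2 fold change of 1 or more and an adjusted p below 0.05.

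AP2/ERF proteins bind DNA through the AP2 domain and form one of the large plant families of transcription factors. DREB-type members bind the dehydration-responsive element in promoters of drought- and cold-induced genes, whereas ERF-type members bind the GCC box of many ethylene- and defense-related genes. NAC proteins share the NAM domain at the N-terminus and take part in organ boundaries, senescence and stress responses. These roles come mostly from Arabidopsis and were not measured here.

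The 6 libraries held 31.1 to 37.8 M mapped reads (megareads), and a single read counts for 0.0265 to 0.0321 RPKM on a unigene of 1 kb. The 4 chloroplast photosystem unigenes taken as leaf markers were above 0 in every library. This does not test the tissue, because they came from the study's list of responding unigenes. Their levels were uneven under Mn toxicity. The photosystem II protein D1, for instance, had 710, 45.5 and 1267 RPKM in Mn toxicity replicates 1, 2 and 3, against 37.2, 72.3 and 58.7 RPKM in control Mn replicates 1, 2 and 3. A set of 40 abundant unigenes, none of them a member and each with a share of 0.1% or more in some library and a highest share over 8 times its lowest, took 23.6, 1.62 and 38.6% of the reads in Mn toxicity replicates 1, 2 and 3, against 0.968, 1.78 and 0.966% in the control Mn replicates. RPKM of all other unigenes are lower where such a set takes more of the reads. The median log2 fold change of the 30913 tested unigenes was -0.20 with the deposited RPKM. It was 0.01 after median-of-ratios scaling, in which each library is divided by the median ratio of its unigenes to their mean over the libraries. Fold changes after this scaling are therefore given beside those of the deposited RPKM.

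Most members had a higher mean level under Mn toxicity. Of the 24 AP2 unigenes, 23 had a higher mean RPKM in Mn toxicity leaves than in control Mn leaves and 1 a lower one, and of the 11 NAM unigenes 9 had a higher and 2 a lower mean. The groups did not overlap for 32 members, of which 29 were higher and 3 lower in every Mn toxicity library than in every control Mn library, beside 9.41% of all tested unigenes on the higher side and 22.6% on the lower side. After scaling, 30 members were higher and 3 lower without overlap, and the shares of all tested unigenes were 22.7 and 23.5%. Since the study had listed the members from these libraries, these counts restate how they were chosen.

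Of the 35 members, 30 reached a mean of 0.5 RPKM over the 6 libraries and were tested, 21 of them AP2 and 9 NAM. As deposited, 5 AP2 and 2 NAM members were called higher, beside 2.09% of all tested unigenes. No AP2 and 2 NAM members were called lower, beside 3.69%. After median-of-ratios scaling, 15 AP2 and 5 NAM members were called higher, beside 4.44% of all tested unigenes, and 2 NAM members lower, beside 3.72%. Over all tested unigenes, 646 were called higher and 1141 lower as deposited, against 1364 and 1143 after scaling. The counts depended on single libraries. Without Mn toxicity replicate 1, 2 or 3, the AP2 members called higher numbered 3, 8 and 13, and without any 1 of the control Mn libraries they numbered 2. The NAM members called higher numbered 0, 3 and 6 without Mn toxicity replicate 1, 2 or 3, and 0 without any 1 of the control Mn libraries. The members of either family called lower numbered 1 without Mn toxicity replicate 1 or any 1 control Mn library. They numbered 3 without Mn toxicity replicate 2, the third being the AP2 unigene described as RAP2-7. The TINY unigene, the unigene described as a drought responsive element binding protein and the NAC-like unigene TRINITY_DN44067_c0_g1 were called in all 16 alternative fits, which include limma voom and the omission of each library but not that omission together with scaling. Among tested members, the median log2 fold change was 1.04 for AP2 and 0.93 for NAM as deposited, and 1.20 and 1.13 after scaling. A member weak in the control Mn libraries passed the minimum of 0.5 RPKM only through the Mn toxicity libraries, so these medians do not stand for all 35.

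The 5 unigenes described as DREB or TINY included the 3 largest log2 fold changes among the AP2 members. Their summed level was 35.2, 33.9 and 19.4 RPKM in Mn toxicity replicates 1, 2 and 3, against 4.49, 4.62 and 4.37 RPKM in control Mn replicates 1, 2 and 3. The ratio of the means was 6.56 as deposited and 7.59 after scaling. For the 12 ERF-described unigenes the same ratio was 2.05 as deposited and 2.39 after scaling. For the 7 other AP2 unigenes it was 2.49 and 2.875. The plot of RPKM by library shows that most of this DREB and TINY sum came from 2 unigenes.

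**Figure D1:**
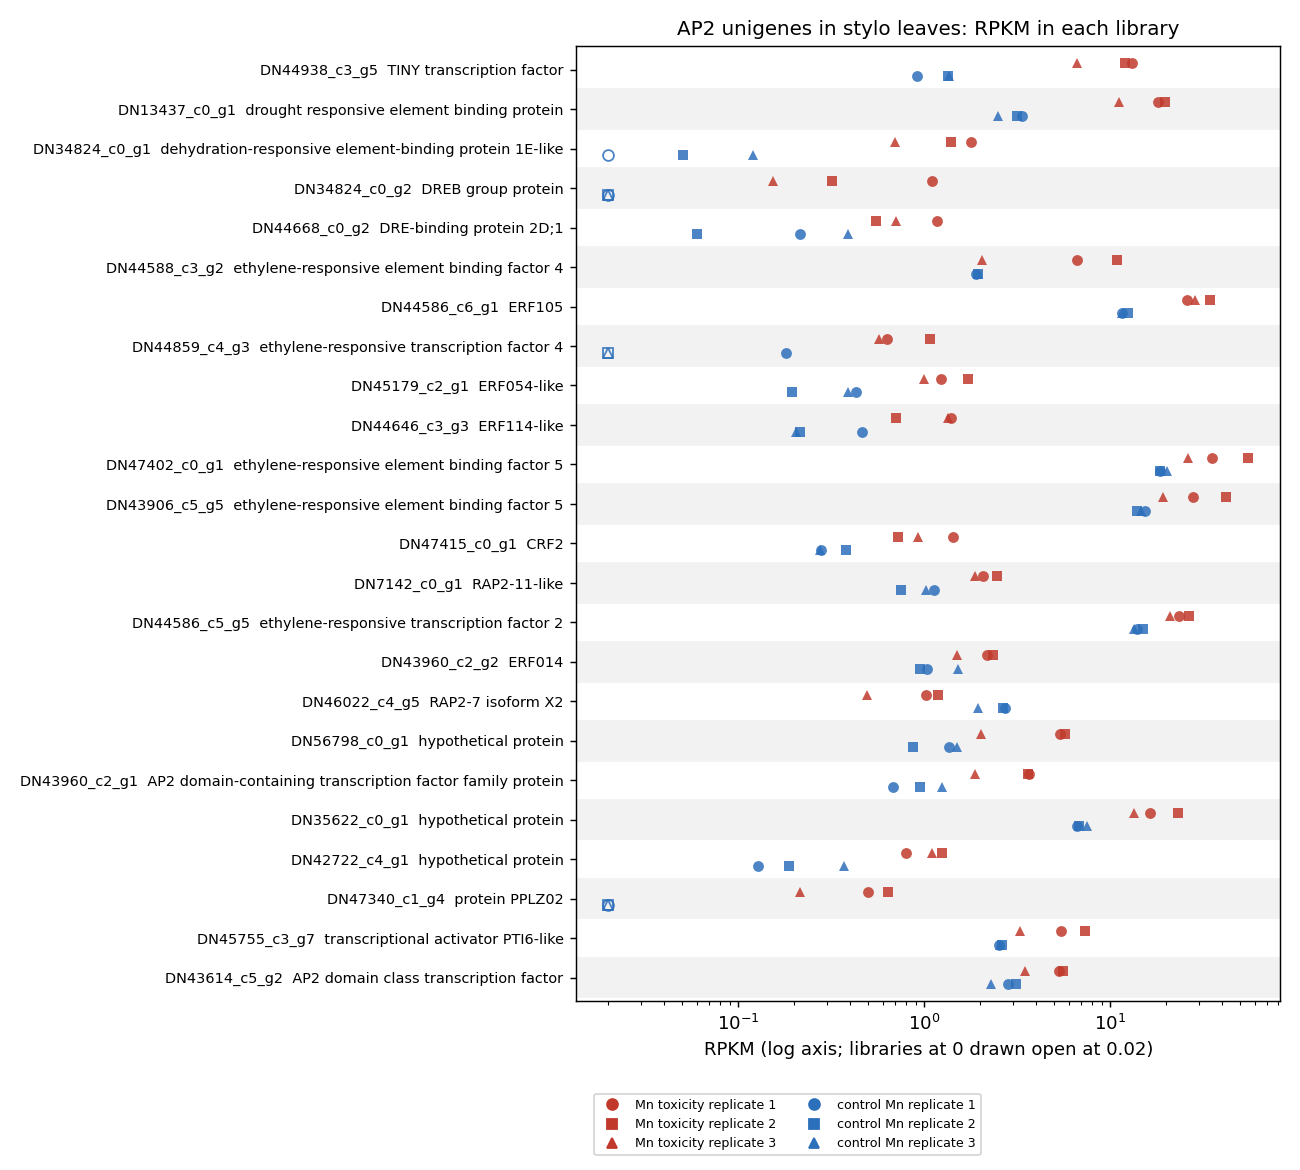
RPKM (log axis) of the 24 AP2 unigenes in each of the 3 Mn toxicity libraries (red, upper marks of each row) and 3 control Mn libraries (blue, lower marks), with the replicate shown by the shape of the mark and open marks for libraries at 0. DREB and TINY unigenes fill the top rows, then ERF and other descriptions, and 22 of the 24 rows have every Mn toxicity mark to the right of every control Mn mark.

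TINY, a DREB-type factor in Arabidopsis, is the description of the member with the largest positive log2 fold change on log2(RPKM + 0.5). By limma voom, at 3.33, and with a pseudocount of 0.1, at 2.99, it came second to a DREB unigene with far fewer reads, TRINITY_DN34824_c0_g1, at 4.50 and 3.14. TRINITY_DN44938_c3_g5, described as a TINY transcription factor, had 13.2, 11.98 and 6.62 RPKM in Mn toxicity replicates 1, 2 and 3, against 0.913, 1.35 and 1.36 RPKM in control Mn replicates 1, 2 and 3. The lowest Mn toxicity library lay well above the highest control Mn library. The means were 10.6 ± 3.48 RPKM under Mn toxicity and 1.21 ± 0.254 RPKM under control Mn (SD, n = 3 each). The log2 fold change on log2(RPKM + 0.5) was 2.65 ± 0.32 (SE) as deposited and 2.86 after scaling.

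The unigene described as a drought responsive element binding protein was the most abundant of the 5. TRINITY_DN13437_c0_g1 had 17.99, 19.7 and 11.2 RPKM in Mn toxicity replicates 1, 2 and 3, against 3.36, 3.16 and 2.50 RPKM in control Mn replicates 1, 2 and 3. Replicate 3 was the lowest library in both groups, and the groups stayed apart. Its log2 fold change was 2.23 ± 0.28 (SE) as deposited and 2.45 after scaling, with means of 16.3 ± 4.49 RPKM under Mn toxicity and 3.01 ± 0.451 RPKM under control Mn (SD, n = 3 each).

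The DREB unigene that the study amplified by qRT-PCR, TRINITY_DN34824_c0_g2, was detected only under Mn toxicity, and with few reads. Its primers are shown because they define the transcript that was checked, and they are written 5′ to 3′ in lower case.
DREB forward: tgaggcaagcagacttaccg
DREB reverse: tgtacaggggagtacggagg
Both primers are 20 bases long, with a GC content of 55% in the forward and 60% in the reverse primer. The unigene had 1.10, 0.319 and 0.153 RPKM in Mn toxicity replicates 1, 2 and 3, and was at 0 in all 3 control Mn libraries. These values stand for at least 36, 10 and 5 reads in the Mn toxicity libraries, so most of its signal came from replicate 1. Against a floor of 3 reads per control Mn library, the mean of the Mn toxicity libraries was at least 5.23-fold higher. Such floors cover counting error only. It did not reach the minimum level for the test.

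A second DREB unigene from the same Trinity component, TRINITY_DN34824_c0_g1, behaved alike at a slightly higher level. This unigene, described as a dehydration-responsive element-binding protein 1E-like, is 533 bases long and had 1.79, 1.40 and 0.697 RPKM in Mn toxicity replicates 1, 2 and 3, against 0, 0.0506 and 0.121 RPKM in control Mn replicates 1, 2 and 3. In reads, this was 36, 27 and 14 under Mn toxicity, against 0, 1 and 2 under control Mn. The ratio of summed reads, corrected for the library totals, was 24.0, with an exact 95% interval of 7.90 to 118.8 for counting error alone. Its log2 fold change was 1.64 ± 0.34 (SE) as deposited and 1.73 after scaling. The same change was 4.50 by limma voom on the recovered reads, because adding 0.5 RPKM draws the change of a weakly expressed unigene toward 0. Unigenes of 1 component share assembled sequence, so reads may be divided between them. Taken as a pair, the 2 unigenes held at least 72, 37 and 19 reads in Mn toxicity replicates 1, 2 and 3. In control Mn replicates 1, 2 and 3 they held 0, 1 and 2 reads. At these reads the ratio for the pair was 39.9, with an interval of 13.3 to 195.8 for counting error alone. Both rest on the lower limits of the reads of TRINITY_DN34824_c0_g2.

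The last DREB member, TRINITY_DN44668_c0_g2, described as DRE-binding protein 2D;1, was weak in both groups. It had 1.17, 0.551 and 0.705 RPKM in Mn toxicity replicates 1, 2 and 3, against 0.215, 0.0598 and 0.391 RPKM in control Mn replicates 1, 2 and 3. The corresponding reads were 40, 18 and 24 under Mn toxicity, against 7, 2 and 11 under control Mn. The groups stood close, with a log2 fold change of 0.86 ± 0.33 (SE) as deposited and 0.99 after scaling, and this unigene was not called in either fit.

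**Figure D2:**
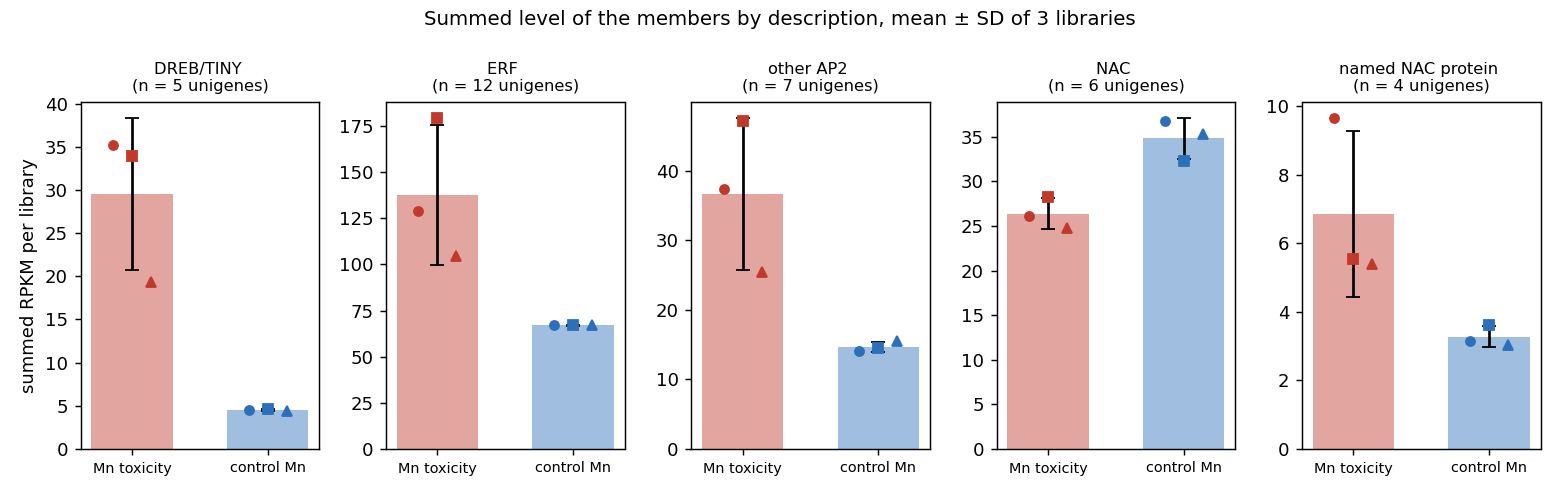
Summed RPKM per library for members of each description, without the aspartyl protease unigene, with Mn toxicity on the left (red) and control Mn on the right (blue) of each panel. Bars are means of 3 libraries, error bars are SD, and circles, squares and triangles are replicates 1, 2 and 3. The DREB and TINY sum averaged 29.5 RPKM under Mn toxicity and 4.49 RPKM under control Mn, and the sum of the NAC descriptions 26.4 RPKM under Mn toxicity and 34.8 RPKM under control Mn. All sums drawn are as deposited. After scaling the NAC sums overlapped, at 27.0, 22.1 and 39.8 RPKM in Mn toxicity replicates 1, 2 and 3, against 33.3, 30.5 and 31.9 RPKM in control Mn replicates 1, 2 and 3.

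The ERF-described members were the most abundant part of the AP2 family, and 11 of the 12 had a higher mean under Mn toxicity. Members were grouped by the words of their description. The ERF group thus includes RAP2-7, which had the lower mean, while PTI6-like stands among the other AP2 descriptions. The summed level of the 12 ERF-described members was 129, 179 and 105 RPKM in Mn toxicity replicates 1, 2 and 3. In control Mn replicates 1, 2 and 3 it was 67.4, 67.0 and 67.0 RPKM. The control Mn sums were almost equal while those under Mn toxicity differed widely, and the lowest sum under Mn toxicity was that of replicate 3, the library in which the 40 abundant unigenes took most reads. The part of that uneven distribution in these levels was not tested. After scaling the sums were 133, 140 and 168 RPKM under Mn toxicity, against 61.1, 63.2 and 60.5 RPKM under control Mn, and replicate 3 was then the highest.

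Of the ERF members, 4 unigenes made up 55.8, 60.7 and 63.6% of the AP2 sum in Mn toxicity replicates 1, 2 and 3, against 68.9, 69.6 and 68.8% in control Mn replicates 1, 2 and 3. They are both unigenes described as ethylene-responsive element binding factor 5, the one described as ERF105 and the one described as ethylene-responsive transcription factor 2. In Arabidopsis, ERF5 takes part in responses to chitin and to osmotic stress, and ERF105 responds to cold. TRINITY_DN47402_c0_g1, one of the ERF5 unigenes, averaged 38.9 ± 14.9 RPKM under Mn toxicity and 19.1 ± 0.924 RPKM under control Mn (SD, n = 3 each), the highest level of any member. The other ERF5 unigene, TRINITY_DN43906_c5_g5, averaged 29.6 ± 11.4 RPKM under Mn toxicity and 14.6 ± 0.736 RPKM under control Mn. Both had log2 fold changes just below the limit as deposited, 0.94 and 0.93, and above it after scaling, 1.19 and 1.17.

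ERF105 was the only ERF member called higher as deposited. TRINITY_DN44586_c6_g1 had 25.9, 34.3 and 28.7 RPKM in Mn toxicity replicates 1, 2 and 3, against 11.6, 12.4 and 11.5 RPKM in control Mn replicates 1, 2 and 3. All Mn toxicity libraries were at more than 2 times the level of any control Mn library. Its log2 fold change was 1.28 ± 0.21 (SE) as deposited and 1.52 after scaling. TRINITY_DN44586_c5_g5, the ethylene-responsive transcription factor 2, comes from the same read cluster but another component, and averaged 23.7 ± 2.87 RPKM under Mn toxicity and 14.1 ± 0.769 RPKM under control Mn (SD, n = 3 each). Of the reads of the pair, this unigene held 46.8% over the Mn toxicity libraries, against 56.8% over the control Mn libraries.

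ERF4, a repressor of transcription in Arabidopsis, is the description of 2 members, and they differed in level. TRINITY_DN44588_c3_g2 had 6.59, 10.9 and 2.04 RPKM in Mn toxicity replicates 1, 2 and 3, against 1.89, 1.95 and 1.94 RPKM in control Mn replicates 1, 2 and 3. Mn toxicity replicate 3 lay barely above the control Mn libraries, and the other 2 were far higher. The log2 fold change was 1.28 ± 0.48 (SE), the largest error of any tested member, and it was called after scaling but not as deposited. TRINITY_DN44859_c4_g3 was close to the detection limit, with 11, 18 and 10 reads in Mn toxicity replicates 1, 2 and 3, against 3, 0 and 0 reads in control Mn replicates 1, 2 and 3. Its ratio of summed reads, corrected for library totals, was 12.1, with an exact 95% interval of 3.86 to 61.4 for counting error alone.

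ERF014, TRINITY_DN43960_c2_g2, was the only AP2 member whose groups overlapped. Its levels were 2.18, 2.34 and 1.496 RPKM in Mn toxicity replicates 1, 2 and 3, against 1.04, 0.952 and 1.51 RPKM in control Mn replicates 1, 2 and 3. Mn toxicity replicate 3 fell just below control Mn replicate 3, and the groups no longer overlapped after scaling. A short unigene of the same component, TRINITY_DN43960_c2_g1, described as an AP2 domain-containing family protein and 284 bases long, had 3.64, 3.60 and 1.87 RPKM in Mn toxicity replicates 1, 2 and 3, against 0.682, 0.951 and 1.24 RPKM in control Mn replicates 1, 2 and 3. It held 35.8, 33.9 and 29.4% of the pair's reads under Mn toxicity, against 17.9, 25 and 21.6% under control Mn. The log2 fold change was 0.59 ± 0.30 (SE) for ERF014 and 1.25 ± 0.33 (SE) for the short unigene.

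The only AP2 member with a lower mean under Mn toxicity was described as RAP2-7. In Arabidopsis RAP2.7 belongs to the AP2-type branch of the family and represses flowering. TRINITY_DN46022_c4_g5 had 1.02, 1.18 and 0.494 RPKM in Mn toxicity replicates 1, 2 and 3, against 2.70, 2.66 and 1.94 RPKM in control Mn replicates 1, 2 and 3. Every Mn toxicity library was below every control Mn library. The log2 fold change was -1.09 ± 0.32 (SE) as deposited and -0.94 after scaling, and it was called in neither fit.

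Among the AP2 members with other descriptions, 2 unigenes described as hypothetical proteins had log2 fold changes above 1 and means of several RPKM under Mn toxicity. TRINITY_DN35622_c0_g1 had 16.3, 23.0 and 13.4 RPKM in Mn toxicity replicates 1, 2 and 3, against 6.63, 6.75 and 7.51 RPKM in control Mn replicates 1, 2 and 3. It was called higher, with a log2 fold change of 1.24 ± 0.25 (SE). TRINITY_DN56798_c0_g1 had 5.39, 5.69 and 2.01 RPKM in Mn toxicity replicates 1, 2 and 3, against 1.35, 0.872 and 1.496 RPKM in control Mn replicates 1, 2 and 3. Here Mn toxicity replicate 3 was little above the control Mn libraries, and the log2 fold change of 1.39 ± 0.39 (SE) was called only after scaling.

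The other 8 AP2 members, which include those described as ERF054-like, ERF114-like, the cytokinin response factor CRF2, RAP2-11-like, PTI6-like and PPLZ02, had no overlap between the groups and no call as deposited. Their means ran from 0.450 to 5.34 RPKM under Mn toxicity and from 0 to 2.73 RPKM under control Mn. The log2 fold changes of the 7 that were tested ran from 0.70 to 1.11 as deposited and from 0.91 to 1.24 after scaling, and 5 were called higher after scaling. PPLZ02, TRINITY_DN47340_c1_g4, was at 0 in all control Mn libraries and at 0.501, 0.635 and 0.215 RPKM in Mn toxicity replicates 1, 2 and 3. Against 3 reads per control Mn library, it was at least 3.84-fold higher.

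The NAM members moved in both directions, and as deposited their summed level was nearly the same in both groups. It was 48.2, 49.4 and 41.2 RPKM in Mn toxicity replicates 1, 2 and 3, against 45.4, 41.4 and 44.1 RPKM in control Mn replicates 1, 2 and 3. After scaling the sums were 49.8, 38.6 and 66.1 RPKM under Mn toxicity, against 41.1, 39.0 and 39.8 RPKM under control Mn. The ratio of the means was 1.06 as deposited and 1.29 after scaling. This sum includes the unigene described as an aspartyl protease, TRINITY_DN42359_c0_g1. It held 25.8, 31.7 and 26.6% of the sum in Mn toxicity replicates 1, 2 and 3. In control Mn replicates 1, 2 and 3 it held 12.1, 13.1 and 12.9%. For the 6 NAC descriptions alone, the ratio of the means was 0.76 as deposited and 0.93 after scaling. For the 4 members named after single Arabidopsis proteins it was 2.09 and 2.54. A single unigene, TRINITY_DN44067_c0_g1, held 1.40, 0.874 and 1.83% of the NAM sum under Mn toxicity, against 43.3, 40.6 and 43.2% under control Mn. Without it, the sum as deposited was 47.5, 48.9 and 40.4 RPKM under Mn toxicity, against 25.7, 24.6 and 25.1 RPKM under control Mn. In leaf RNA, fewer cells of a type and less RNA per cell cannot be told apart, for this unigene as for all others.

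**Figure D3:**
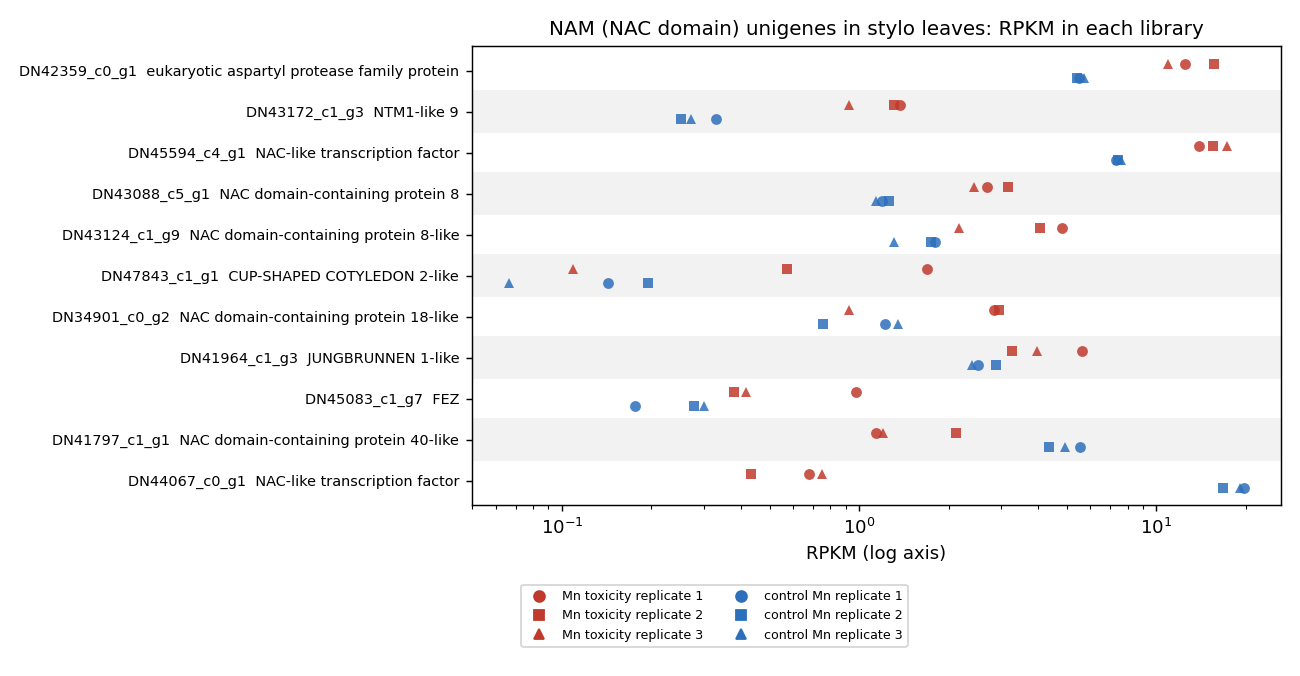
RPKM (log axis) of the 11 NAM unigenes in each of the 3 Mn toxicity libraries (red, upper marks of each row) and 3 control Mn libraries (blue, lower marks), with the replicate shown by the shape of the mark. In the bottom row, TRINITY_DN44067_c0_g1 lies between 0.432 and 0.753 RPKM under Mn toxicity and between 16.8 and 19.7 RPKM under control Mn.

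TRINITY_DN44067_c0_g1, described as a NAC-like transcription factor, had the largest fitted log2 fold change in size of all members. The study chose it for qRT-PCR, and the primers are shown since they identify the transcript.
NAC-like forward: ttgccggctctggatattgg
NAC-like reverse: ttttggtccctttgggtgct
The primers, of 20 bases each, have a GC content of 55% in the forward and 50% in the reverse primer. The unigene had 0.677, 0.432 and 0.753 RPKM in Mn toxicity replicates 1, 2 and 3, against 19.7, 16.8 and 19.1 RPKM in control Mn replicates 1, 2 and 3. It was the most abundant NAM member in every control Mn library. In reads, this was 36, 22 and 40 under Mn toxicity, against 1001, 876 and 836 under control Mn, so the level under Mn toxicity rests on few reads. The log2 fold change was -4.09 ± 0.26 (SE) as deposited, -3.86 after scaling and -4.82 by limma voom on the recovered reads.

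The second NAM member called lower was TRINITY_DN41797_c1_g1, described as NAC domain-containing protein 40-like. The Arabidopsis protein of that name, also called NTL8, is tethered to a membrane until it is released. This unigene had 1.14, 2.12 and 1.21 RPKM in Mn toxicity replicates 1, 2 and 3, against 5.54, 4.35 and 4.94 RPKM in control Mn replicates 1, 2 and 3. The highest Mn toxicity library was at less than 50% of the lowest control Mn library, and the log2 fold change was -1.48 ± 0.30 (SE) as deposited and -1.28 after scaling.

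The NAM members called higher as deposited were TRINITY_DN42359_c0_g1 and TRINITY_DN45594_c4_g1. The first carries the NAM family in the study's table, yet its description is a eukaryotic aspartyl protease family protein, and at 3250 bases it is the longest member. It had 12.4, 15.6 and 10.97 RPKM in Mn toxicity replicates 1, 2 and 3, against 5.49, 5.42 and 5.70 RPKM in control Mn replicates 1, 2 and 3, with a log2 fold change of 1.15 ± 0.24 (SE). The second, described as a NAC-like transcription factor, had 13.96, 15.5 and 17.3 RPKM in Mn toxicity replicates 1, 2 and 3, against 7.32, 7.43 and 7.57 RPKM in control Mn replicates 1, 2 and 3. It was 1 of only 2 members with their highest deposited level in Mn toxicity replicate 3, and its log2 fold change was 1.01 ± 0.22 (SE) as deposited and 1.25 after scaling.

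A further 3 NAM members carry descriptions of the numbered kind, and 2 of these were described as NAC domain-containing protein 8, which in Arabidopsis is SOG1, a regulator of the response to DNA damage. TRINITY_DN43088_c5_g1 had 2.70, 3.16 and 2.43 RPKM in Mn toxicity replicates 1, 2 and 3, against 1.20, 1.26 and 1.14 RPKM in control Mn replicates 1, 2 and 3. TRINITY_DN43124_c1_g9 had 4.81, 4.06 and 2.17 RPKM in Mn toxicity replicates 1, 2 and 3, against 1.80, 1.74 and 1.31 RPKM in control Mn replicates 1, 2 and 3. Both were separate between the groups and had a log2 fold change of 0.94 and 0.93 as deposited, and both were called higher only after scaling. The NAC domain-containing protein 18-like unigene TRINITY_DN34901_c0_g2 overlapped between the groups, with 2.83, 2.96 and 0.928 RPKM in Mn toxicity replicates 1, 2 and 3, against 1.22, 0.756 and 1.35 RPKM in control Mn replicates 1, 2 and 3.

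The last 4 NAM members bear the names of single Arabidopsis proteins, and all 4 had their highest deposited level in Mn toxicity replicate 1. JUNGBRUNNEN 1 responds to hydrogen peroxide, delays senescence and activates DREB2A in Arabidopsis. The unigene described as JUNGBRUNNEN 1-like, TRINITY_DN41964_c1_g3, had 5.61, 3.26 and 3.95 RPKM in Mn toxicity replicates 1, 2 and 3, against 2.51, 2.90 and 2.41 RPKM in control Mn replicates 1, 2 and 3. The groups were apart by a small margin as deposited and overlapped after scaling. Its log2 fold change was 0.59 ± 0.29 (SE) as deposited and 0.82 after scaling, called in neither fit.

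CUP-SHAPED COTYLEDON 2 sets organ boundaries in Arabidopsis, and its unigene was the most uneven of all members among the Mn toxicity libraries. TRINITY_DN47843_c1_g1 had 1.69, 0.570 and 0.109 RPKM in Mn toxicity replicates 1, 2 and 3, against 0.143, 0.195 and 0.0662 RPKM in control Mn replicates 1, 2 and 3. In reads, this was 62, 20 and 4 under Mn toxicity, against 5, 7 and 2 under control Mn, so replicate 3 lay within the control Mn range. The highest Mn toxicity library was 15.5 times the lowest, and 9.95 times after scaling.

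FEZ, which promotes stem cell divisions of the root cap in Arabidopsis, had 0.977, 0.381 and 0.417 RPKM in Mn toxicity replicates 1, 2 and 3, against 0.177, 0.279 and 0.3001 RPKM in control Mn replicates 1, 2 and 3 (TRINITY_DN45083_c1_g7). Replicate 1 alone was far above the control Mn libraries. NTM1-like 9, a membrane-bound NAC protein in Arabidopsis, was more even. Its unigene TRINITY_DN43172_c1_g3 had 1.37, 1.31 and 0.923 RPKM in Mn toxicity replicates 1, 2 and 3, against 0.329, 0.252 and 0.273 RPKM in control Mn replicates 1, 2 and 3. The log2 fold change was 1.11 ± 0.29 (SE) as deposited and 1.24 after scaling, where it was called higher.

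**Figure D4:**
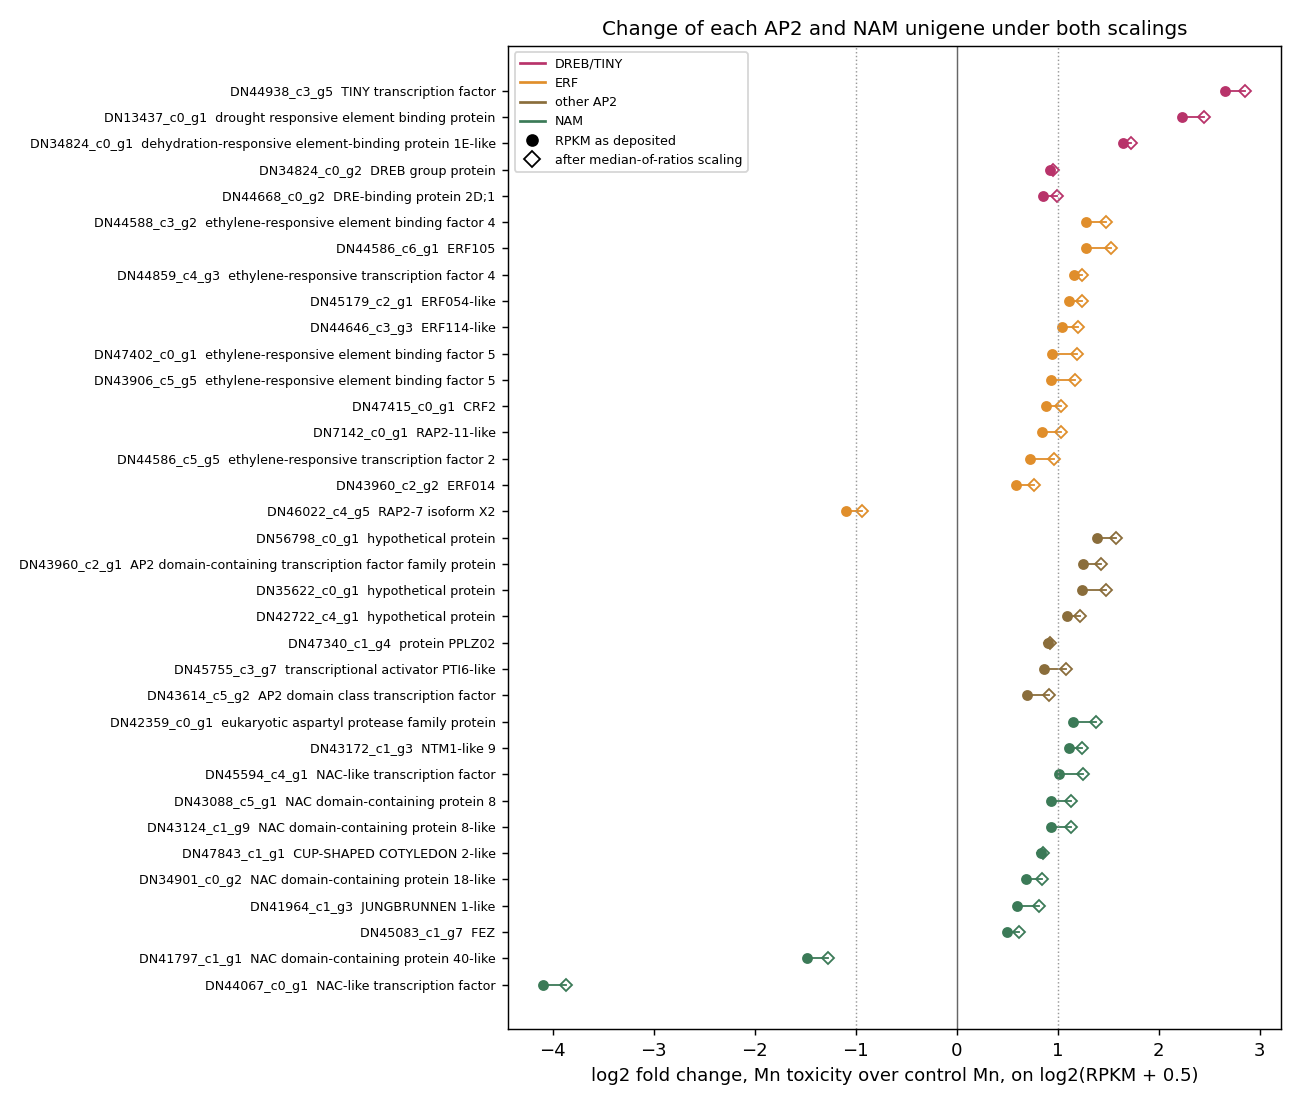
Log2 fold change of Mn toxicity over control Mn on log2(RPKM + 0.5) for each of the 35 members, as deposited (filled circles) and after median-of-ratios scaling (open diamonds), with dotted lines at -1 and 1. Every member lies further to the right after scaling, and no member changes sign. TRINITY_DN44067_c0_g1 lies lowest, at -4.09 as deposited and -3.86 after scaling.

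The members differed in which Mn toxicity library they peaked in. As deposited, 12, 21 and 2 of the 35 members were highest in Mn toxicity replicates 1, 2 and 3, and among all tested unigenes these libraries were the highest for 14.9, 80.5 and 4.59%. After scaling the numbers were 13, 4 and 18, against 28.3, 29.7 and 42.0% of all tested unigenes. All 5 DREB and TINY members were then highest in replicate 1, whereas 8 of the 12 ERF members were highest in replicate 3. As deposited, the spread was wider under Mn toxicity than under control Mn. The highest library was a median of 1.95 times the lowest under Mn toxicity and 1.36 times under control Mn over the members, beside 2.15 and 1.19 times over all tested unigenes. After scaling, the medians under Mn toxicity were 1.58 times over the members and 1.53 times over all tested unigenes.

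The smallest log2 fold changes in size after scaling were 0.62 for FEZ, 0.77 for ERF014 and 0.82 for JUNGBRUNNEN 1-like. FEZ was weak, so the pseudocount bears on its value, and its ratio of mean RPKM was 2.35, against 1.64 for JUNGBRUNNEN 1-like and 1.72 for ERF014. Where these members stand against the limits of the study's list was not analysed. AP2 and NAM unigenes outside the list were not analysed here. The members were weakly to moderately expressed, with a median of 1.997 RPKM over the 6 libraries and a median length of 1238 bases, beside 4.52 RPKM and 1319 bases for all tested unigenes. The control Mn libraries together held fewer than 30 reads for 8 members, 7 of them AP2, and the widest read ratios were found among these.

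Unigenes that share a Trinity component with a member, but stand in no table of the study used here, were also described. The 35 members fall into 33 components, which hold 121 such unigenes, and 72 of these were tested. By limma, 0 were called higher and 1 lower, or 1.39%, beside 5.78% of all tested unigenes in either direction. An unadjusted limma p below 0.05 was found for 8, of which 4 were higher and 4 lower, beside 7529 of all 30913 tested unigenes. By limma voom 1 was also called, which was lower. Leaving out Mn toxicity replicate 2 gave 8 calls, leaving out Mn toxicity replicate 3 gave 2, and leaving out any 1 of the other 4 libraries gave 0. Unigenes on the study's lists of responding unigenes, which came from these same libraries, were left out of this set. Its share of calls was thereby lowered in advance and is not a result about these unigenes. The largest list is held here only in part. The one called, TRINITY_DN43124_c1_g8, had 5.02, 7.39 and 4.57 RPKM in Mn toxicity replicates 1, 2 and 3, against 11.9, 16.4 and 13.3 RPKM in control Mn replicates 1, 2 and 3, with a log2 fold change of -1.24 and an adjusted p of 0.0242 by limma. TRINITY_DN43124_c1_g8 is only 232 bases long, with 44, 62 and 40 reads under Mn toxicity, against 100, 141 and 96 under control Mn. The member of its component, the NAC domain-containing protein 8-like unigene TRINITY_DN43124_c1_g9 described above, was higher in every Mn toxicity library. What the short unigene encodes was not analysed.

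Genes of the pathways around these factors were taken from the study's tables of responding unigenes, so their directions are again a description. Ethylene is made by ACC synthase and ACC oxidase. Of 7 unigenes with such descriptions, 6 had a higher mean under Mn toxicity and 1 a lower one. Of the 6 tested, 3 were called higher and 0 lower, both as deposited and after scaling. The shares of all tested unigenes were 2.09% higher and 3.69% lower as deposited, and 4.44 and 3.72% after scaling. An ACC oxidase homolog 1-like unigene, TRINITY_DN43417_c3_g12, had 14.2, 5.11 and 10.9 RPKM in Mn toxicity replicates 1, 2 and 3, against 1.25, 0.669 and 1.03 RPKM in control Mn replicates 1, 2 and 3. For ethylene perception and signalling, 0 of 2 tested unigenes were called higher and 1 lower as deposited, and 1 was called higher and 1 lower after scaling. The one higher after scaling was described as the ethylene receptor EIN4-like, TRINITY_DN46533_c4_g1, with 7.80, 10.9 and 5.40 RPKM in Mn toxicity replicates 1, 2 and 3, against 4.48, 3.82 and 4.27 RPKM in control Mn replicates 1, 2 and 3. The one called lower, TRINITY_DN32864_c0_g1, was described as ETHYLENE INSENSITIVE 3-like 3. This unigene had 9.24, 11.8 and 7.56 RPKM in Mn toxicity replicates 1, 2 and 3, against 23.5, 24.4 and 23.3 RPKM in control Mn replicates 1, 2 and 3. The description alone does not establish a part in ethylene signalling, which was not measured.

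Of 4 unigenes listed under abscisic acid, the hormone that accompanies drought, 0 were called higher and 3 lower as deposited, against 1 and 3 after scaling. The shares of all tested unigenes were 2.09% higher and 3.69% lower as deposited, and 4.44 and 3.72% after scaling. The receptor PYR1-like, TRINITY_DN46759_c0_g1, had 12.7, 23.8 and 12.5 RPKM in Mn toxicity replicates 1, 2 and 3, against 73.0, 73.3 and 71.9 RPKM in control Mn replicates 1, 2 and 3. Another receptor, PYL4-like, averaged higher under Mn toxicity and was called only after scaling. The remaining lower calls were both unigenes described as protein phosphatase 2C 25. That description does not itself place them in abscisic acid signalling. Late embryogenesis abundant (LEA) and desiccation proteins protect cells that lose water and include known targets of DREB factors. Of 6 such unigenes, 4 were called higher and 1 lower as deposited, against 5 and 0 after scaling, beside the same shares of all tested unigenes. They come from lists of responding unigenes, and a link to the DREB members was not tested. A dehydrin, TRINITY_DN44524_c0_g2, had 18.1, 20.2 and 11.7 RPKM in Mn toxicity replicates 1, 2 and 3, against 6.12, 4.77 and 4.90 RPKM in control Mn replicates 1, 2 and 3. The LEA group 6 unigene TRINITY_DN33626_c0_g1 was the most abundant of the list, with 114, 146 and 134 RPKM in Mn toxicity replicates 1, 2 and 3, against 54.3, 56.5 and 58.1 RPKM in control Mn replicates 1, 2 and 3.

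Of 22 MYB unigenes in the same table, 15 had a higher and 7 a lower mean under Mn toxicity, of 15 HLH unigenes 13 and 2, and of 9 WRKY unigenes 9 and 0. The tested unigenes numbered 20 for MYB, 15 for HLH and 8 for WRKY. As deposited, 4 MYB unigenes were called higher and 4 lower, 2 HLH unigenes higher and 1 lower, and 2 WRKY unigenes higher and 0 lower. The shares of all tested unigenes were 2.09% higher and 3.69% lower. After scaling these counts were 6 and 5 for MYB, 5 and 2 for HLH, and 4 and 0 for WRKY, beside 4.44 and 3.72%. Since the study had listed these families from the same libraries, the counts restate how they were chosen. The median log2 fold change over all members of a family was 0.63 for MYB, 0.89 for HLH and 0.87 for WRKY as deposited, beside 0.99 for AP2 and 0.83 for NAM. These differences between families were not tested.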

How the data were processed

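Leaf RNA libraries of stylo were grouped by the sample titles into Mn toxicity and control Mn, 3 each; the labels give the Mn concentrations in mM, and the series design and the study's methods give μM, which was used. The authors assembled clean reads with Trinity, mapped them back with Bowtie2 2.2.3, estimated abundance with RSEM and deposited 1 table of RPKM values per library; no scaling between libraries and no filter is stated. Whole reads and unigene lengths were recovered from the steps of the deposited RPKM with Python 3.11.15, within 0.01 read for all but the largest counts; 43500 of 51569 unigenes above 0 were so in at least 4 libraries, and reads of the rest are lower limits. On simulated unigenes, 99.1% were recovered exactly.

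The comparison used limma 3.58.1 (R 4.3.3) on log2(RPKM + 0.5), two-sided, with an intensity trend and no block. P-values were adjusted by Benjamini-Hochberg over all unigenes averaging 0.5 RPKM or more. Calls needed an absolute log2 fold change of 1 or more and an adjusted p below 0.05. Tested on 30950 simulated unigenes, 99.0 and 100% of unigenes changed by 2 and 3 on the log2 scale were recovered, and 4.33% of calls were false. The simulation gave all libraries a dispersion of 0.05 and no uneven share of abundant unigenes. It changed only unigenes of 2 RPKM or more. Its rates therefore do not carry over to these libraries, which were more uneven under Mn toxicity, or to weaker members and smaller changes. The alternatives were other pseudocounts (0.1 and 1), minimum levels (none and 1 RPKM), scalings and variance models, limma voom on recovered reads, a replicate block, and fits without each library; the fits that combine scaling with leaving out a library were added after the data were seen. Same-group libraries differed by more than the counting noise.

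The members are those of the study's table of transcription factors; that table, the other lists and the pathway genes come from this same contrast, and members and lists were chosen with earlier results of these data known. Library values are given for DREB and TINY members, pairs of one component, members with primers, lower members, all NAM members and the 5 ERF or other AP2 members with the largest change; the ERF5, ERF4, PPLZ02 and ethylene-responsive transcription factor 2 unigenes named besides were chosen after their values were seen. The fold changes and p-values in the study's tables were not used. No genome was used, so no coordinates are given.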

Additional observations from a re-analysis of the deposited data

How the results depend on the processing

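No member changed direction in any alternative, over 469 values of 30 members, of which 69 moved by more than the spread between replicates. AP2 members called higher numbered 5 as reported, 15 with median-of-ratios scaling, 16 with quantile normalization, 17 by limma voom on recovered reads and 3 after scaling to the same sum of RPKM, and 2 to 13 when 1 library was left out. NAM members called higher numbered 2 as reported, 5, 5, 6 and 0 under the same 4 alternatives, 1 with a pseudocount of 1, and 0 to 6 when 1 library was left out. Members called lower numbered 1 to 3 when 1 library was left out, against 2. With median-of-ratios scaling and without 1 library, 11 to 19 AP2 (12 without control Mn replicate 1, 13 without control Mn replicate 2 or Mn toxicity replicate 1 or 3, 11 without control Mn replicate 3) and 4 to 6 NAM members were called higher and 2 to 3 members lower. The 1787 calls over all unigenes became 1173 after scaling to the same sum, 3088 by limma voom, 362 to 4942 without 1 library, and 1696 to 3408 without 1 library after scaling (2951 without Mn toxicity replicate 3). Calls in the members' components, 1 as reported, became 0 after scaling to the same sum, 0 to 8 without 1 library and 0 to 3 without 1 library after scaling. The median log2 fold change of AP2 members, 1.04, was 1.41 with a pseudocount of 0.1 and 1.80 by limma voom, and 0.97 to 1.19 without 1 library. The median of NAM members, 0.93, was 1.13 after median-of-ratios scaling, 0.62 after scaling to the same sum and 1.26 by limma voom, and 0.73 to 1.06 without 1 library. The median of all unigenes, -0.20, was 0.0063 after median-of-ratios scaling and 0.0018 by limma voom, and -0.41 to 0.0267 without 1 library, the highest without Mn toxicity replicate 3. Replicate numbers did not pair the libraries: same-numbered libraries had correlations of 0.075, -0.15 and -0.084 in their deviations from the group means. With the replicate number as a block, 2693 unigenes were called, and 8 AP2 and 2 NAM members were called higher. The causes of these changes were not tested. Unigenes with few reads limit the precision of the widest ratios.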
